A study of Mus musculus with 112 samples.

Results

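The genes described here encode 9 potassium channel subunits of the heart: Kcne1, Kcnq1, Kcnh2, Kcnd2, Kcnip2, Kcnj2, Kcnj3, Kcna5 and Kcnj11. They were taken by name, and each was measured by 1 probe set with that single gene symbol, so 9 of the 19938 genes measured in the series are described. Hearts came from male mice of 7 strains on a caloric restriction (CR) diet or a control diet, and each array held the RNA of 1 mouse. The strains were CBA/J, DBA/2J, 129S1/SvImJ, BALB/cJ (labelled Balbc/J), the cross B6C3F1/J, and both of its parents, C57BL/6J (labelled C57BL6/J) and C3H/HeJ. All mice, CR and control alike, were housed singly and ate 84 kcal per week of a purified diet until the diets began at 8 weeks of age. They spent 14 weeks on the diets and were killed at 22 weeks after an overnight fast, when the heart was taken. In 129S1/SvImJ and C57BL/6J the CR ration was lowered once more on the way, and BALB/cJ mice of both arms received extra food. Each group had 8 mice, except DBA/2J CR with 7, because the array of DBA/2J CR replicate 7 was left out. How the heart was cut for RNA is not given in the sources used here.

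Potassium channels carry the outward currents that end the cardiac action potential and hold the resting potential. In the adult mouse ventricle, repolarization rests mainly on the fast transient outward current and on ultrarapid and slow delayed rectifiers, and the classical delayed rectifiers of larger mammals, IKs and IKr, contribute little. The acetylcholine-gated current that slows the heart under vagal tone is mainly a property of atria and nodes, and the ATP-sensitive current opens when cell energy falls. Since these are arrays of bulk tissue, fewer cells of a type and less RNA per cell cannot be told apart in any value that follows.

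Signals are log2 values, relative to the other arrays of the same normalization, and the signal of 1 probe set cannot be set against that of another. A gene is said to have passed when its limma p-value, adjusted over all genes tested, was under 0.05. The array left out had a correlation of 0.262 with the rest of its group, and 6 further arrays, treated here as standing apart, had correlations of 0.894 to 0.986. Correlation alone did not single out these 6. Other arrays lay within that range, such as B6C3F1/J control replicate 7 (0.974) and C57BL/6J control replicate 4 (0.9805). The hearts were checked with marker genes: the 5 markers of all cardiomyocytes (Myh6, Tnnt2, Actc1, Ryr2, Pln) had a mean log2 signal of 11.13 to 13.04 on the arrays used. The 7 markers of atrial cardiomyocytes ranged from 5.79 to 11.36 in their mean, so the arrays differed widely in atrial content. Myl4, the atrial essential myosin light chain, is the atrial marker shown beside the channels below, and its signals fell into 2 clusters, with 75 arrays at or under 9.68 and 36 arrays at or over 11.36.

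Across the 7 strains, 3 of the 9 channel genes passed, all of them higher in CR hearts: Kcne1, Kcnq1 and Kcnip2. The background is that 12% of all 19938 genes passed this comparison, 1534 higher and 865 lower in CR hearts. The median effect (CR minus control, log2) was 0.0595 over the 9 channel genes and -0.00261 over all genes. Kcnh2, Kcnd2, Kcnj2, Kcnj3, Kcna5 and Kcnj11 did not pass.

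Kcne1 encodes minK, the single-pass accessory subunit that joins the pore protein KCNQ1 to form the slow delayed rectifier current IKs. Its effect averaged over strains was 0.38 ± 0.06 (SE), a 1.30-fold higher signal in CR hearts, with an adjusted p of 3.74e-06. The strain mean was higher in CR hearts in 6 of 7 strains. Much of the average came from 1 strain: without 129S1/SvImJ the effect was 0.20 ± 0.06 (adjusted p = 0.0397). It remained past the threshold in this and all other alternatives run, and with Myl4 as a covariate it was 0.38 ± 0.06.

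The size of the Kcne1 effect differed between strains, and 129S1/SvImJ had the largest. The CR ration also differed between some strains, as given above, and between those strains strain and ration cannot be told apart. The 129S1/SvImJ and C57BL/6J mice shared a CR ration, and their Kcne1 effects were 1.42 and 0.49. In 129S1/SvImJ CR hearts Kcne1 had log2 signals of 5.73 at the lowest, 7.15 at the median and 7.38 at the highest, against 4.97, 5.51 and 5.68 in control hearts. All 8 CR hearts lay above all 8 control hearts, although the lowest of them, at 5.73, was close to the highest control heart. The fitted effect was 1.42 ± 0.19 (SE), a 2.68-fold difference with an adjusted p of 9.94e-05, and 6.83% of all genes passed in this strain.

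In B6C3F1/J, Kcne1 had signals of 5.43, 6.18 and 6.62 (lowest, median, highest) in CR hearts, against 5.24, 5.74 and 5.96 in control hearts. The groups overlapped, with 6 of 8 CR hearts above every control heart, and the effect of 0.46 ± 0.15 did not pass (adjusted p = 0.109). It did pass when the spread was estimated from all 14 groups together. In C57BL/6J the signals were 4.85, 5.51 and 5.89 in CR hearts and 4.31, 5.04 and 5.50 in control hearts. Here too the groups overlapped, and the effect of 0.49 ± 0.17 had an adjusted p of 0.219. It was 0.58 ± 0.16 and passed (adjusted p = 0.0405) without C57BL/6J CR replicate 4, one of the 6 arrays that stood apart, a setting added after the data were seen.

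In the other strains the differences in Kcne1 were smaller. The effect was 0.24 ± 0.15 in BALB/cJ, 0.14 ± 0.19 in DBA/2J and 0.08 ± 0.10 in C3H/HeJ, and none of them passed. CBA/J alone had a lower mean in CR hearts, 6.54 ± 0.33 against 6.74 ± 0.17 (SD, n = 8 each), a difference of -0.20 ± 0.13 (SE) that did not pass either. The strain by diet interaction for Kcne1, a test of whether the 7 effects differ, had an F of 9.63 and an adjusted p of 4.24e-05, where 0.712% of all genes passed. Kcne1 was the only one of the 9 channel genes to pass it, and without 129S1/SvImJ its F was 2.75 with an adjusted p of 0.312, a setting added after the data were seen.

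Marker genes of other cell types were read beside the Kcne1 difference in 129S1/SvImJ. The 4 endothelial markers (Pecam1, Cdh5, Tie1, Cldn5) had a mean log2 signal of 8.18 to 8.45 in CR hearts, against 8.57 to 8.93 in control hearts, so these ranges did not overlap. The 5 ventricular markers lay between 10.11 and 10.27 in CR hearts and between 9.99 and 10.16 in control hearts. The 7 atrial markers were at the low end of the series in both groups, 6.11 to 6.25 in CR hearts and 5.97 to 6.27 in control hearts. The part of endothelial and ventricular content in the Kcne1 result was not tested. With Myl4 as a covariate the effect was 1.44 ± 0.20. Myl4 spanned only 0.646 log2 units in these CR hearts and 0.731 in these control hearts, so that fit could not test atrial content.

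**Figure D1:**
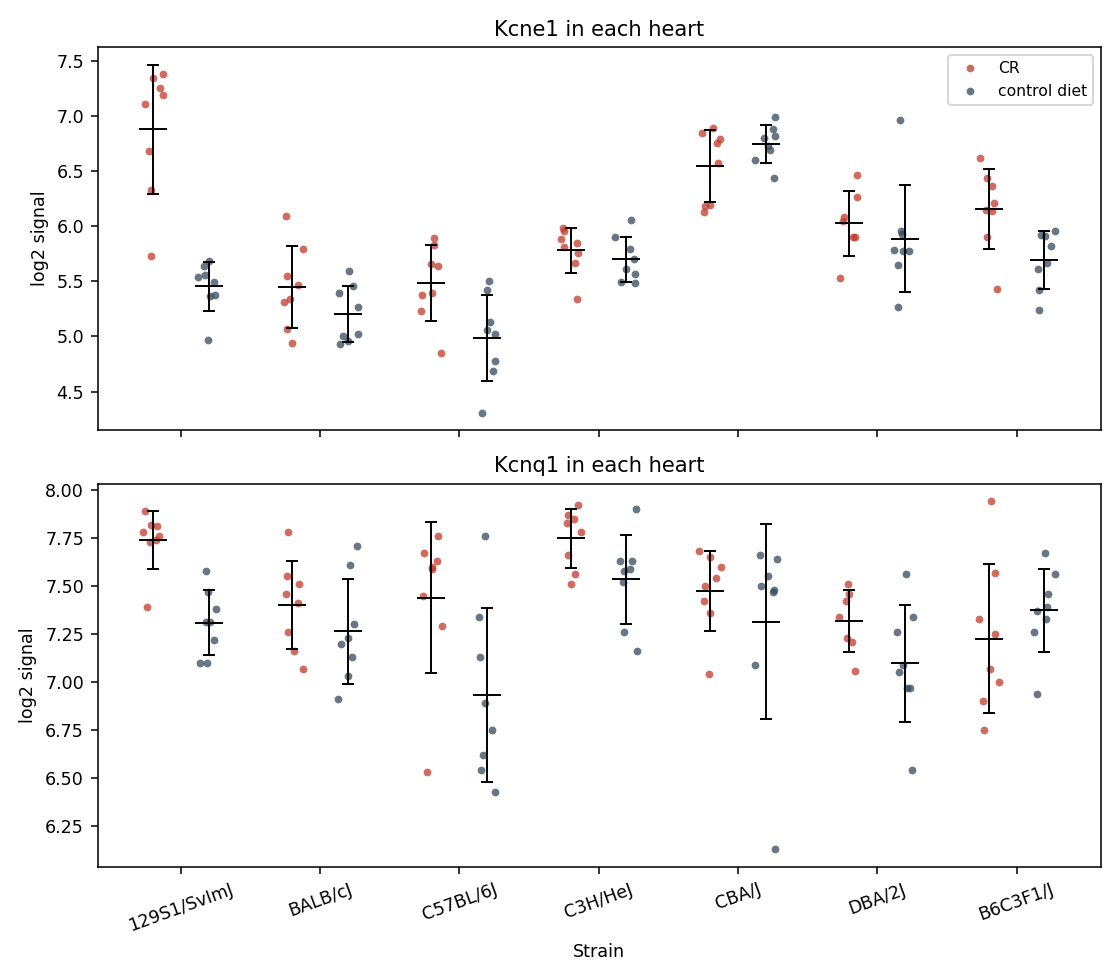
Log2 signal of Kcne1 (top) and Kcnq1 (bottom) in each heart, by strain, with CR hearts (red) left of control hearts (blue). Horizontal marks are group means and bars are ± 1 SD (n = 8 hearts, 7 for DBA/2J CR). For Kcne1 the 129S1/SvImJ groups do not overlap, and the lowest CR heart is at 5.73.

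Kcnq1 encodes the pore of the IKs channel. Its effect averaged over strains was 0.22 ± 0.06 (SE), a 1.16-fold higher signal in CR hearts (adjusted p = 0.00358), and the strain mean was higher in CR hearts in 6 of 7 strains. Without 129S1/SvImJ the effect was 0.18 ± 0.06 and did not pass (adjusted p = 0.0694). It remained past the threshold without any other strain and without the 6 arrays that stood apart, where it was 0.21 ± 0.05.

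In 129S1/SvImJ, Kcnq1 had signals of 7.39, 7.77 and 7.89 (lowest, median, highest) in CR hearts, against 7.10, 7.31 and 7.58 in control hearts. All CR hearts but 1 were above every control heart, and the exception, at 7.39, lay within the control range. The effect was 0.43 ± 0.08 (SE), or 1.35-fold, with an adjusted p of 0.00208. It did not pass when the spread was estimated from all 14 groups together (adjusted p = 0.116).

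C57BL/6J had the largest difference in Kcnq1, with signals of 6.53, 7.59 and 7.76 in CR hearts and 6.43, 6.82 and 7.76 in control hearts. The ranges were nearly the same, but the lowest CR heart was replicate 4, among the arrays that stood apart. The other CR hearts lay between 7.29 and 7.76. The effect of 0.51 ± 0.19 did not pass (adjusted p = 0.27). It did pass when the spread was estimated from all 14 groups together, and without replicate 4, a setting added after the data were seen. B6C3F1/J was the only strain with a lower mean in CR hearts, 7.23 ± 0.39 against 7.37 ± 0.22 (SD, n = 8 each), and that difference did not pass (adjusted p = 0.577). Across hearts the 2 IKs genes varied separately: with each array taken as its difference from its group mean, the correlation of Kcne1 with Kcnq1 was 0.08 over the arrays used.

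Kcnh2 encodes the pore of the rapid delayed rectifier IKr, the mouse counterpart of human HERG. Its across-strain effect was 0.06 ± 0.06 (SE), with a 95% interval of -0.06 to 0.18, and it did not pass (adjusted p = 0.602). Strain effects ran from -0.22 in B6C3F1/J to 0.25 in C57BL/6J, and none of the 7 passed. In contrast to Kcne1, Kcnh2 moved with Kcnq1 from heart to heart, with a correlation of 0.88 over these arrays on the same scale, a value that includes arrays with low channel signals throughout.

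**Figure D2:**
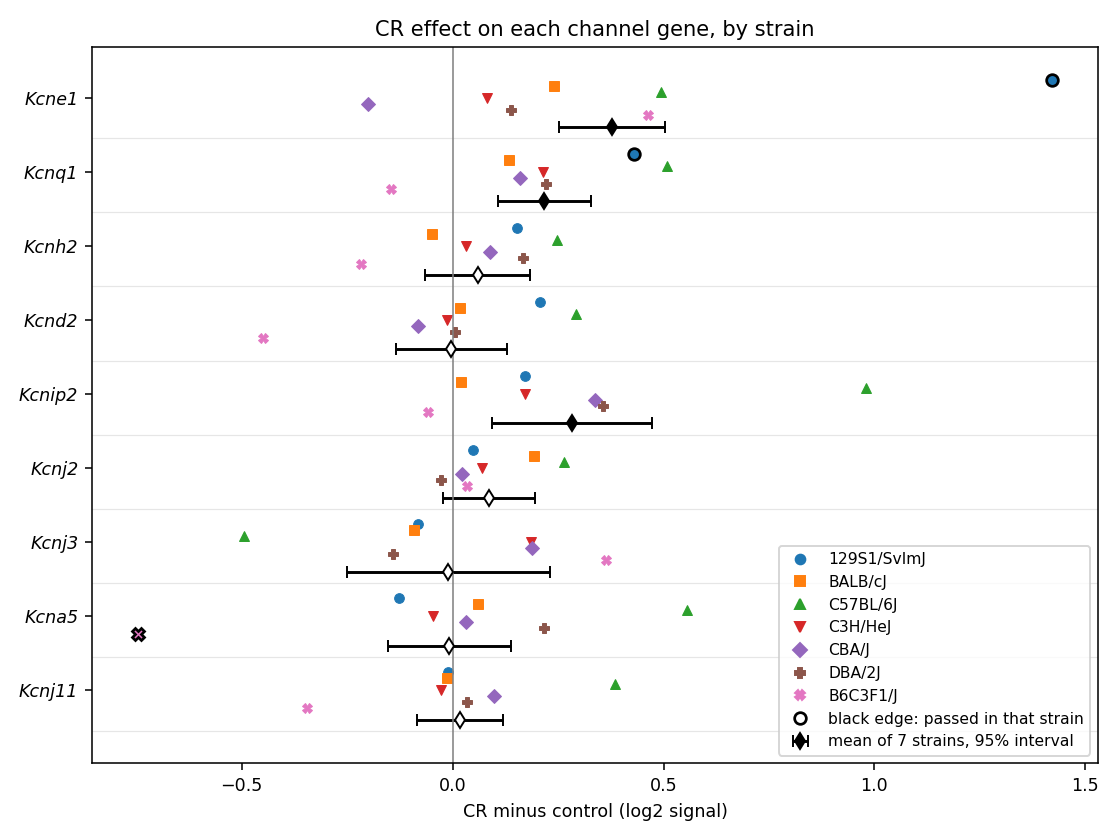
CR effect on each channel gene, as the difference between CR and control hearts in log2 signal. Coloured symbols are the 7 strains, with a black edge where the gene passed in that strain, and diamonds are the mean over strains with its 95% interval, filled where it passed. Kcne1 in 129S1/SvImJ lies at 1.42, and Kcna5 in B6C3F1/J at -0.75.

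The fast transient outward current Ito,f of the mouse ventricle is carried by Kv4 pores, of which Kcnd2 encodes Kv4.2, together with KChIP2, the calcium-binding subunit that Kcnip2 encodes and that brings Kv4 channels to the cell surface. Kcnip2 was higher in CR hearts, with an across-strain effect of 0.28 ± 0.10 (SE), 1.22-fold, and an adjusted p of 0.0351. Its pore partner Kcnd2 showed an effect of -0.00 ± 0.07, with a 95% interval of -0.13 to 0.13 (adjusted p = 0.986). The strain mean of Kcnip2 was higher in CR hearts in 6 of 7 strains, but no single strain passed when fitted alone.

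The Kcnip2 call depended on the arrays used. Without C57BL/6J the effect was 0.17 ± 0.08 and did not pass (adjusted p = 0.192). The call was also lost, with effects of 0.24 to 0.30, with all 112 arrays (adjusted p = 0.179), without DBA/2J control replicate 5 (adjusted p = 0.0514), and without 129S1/SvImJ, C3H/HeJ or DBA/2J. Without the 6 arrays that stood apart the effect was 0.25 ± 0.07 (adjusted p = 0.0045), and with Myl4 as a covariate it was 0.29 ± 0.08 (adjusted p = 0.00528). The difference was largest in C57BL/6J, at 0.98 ± 0.39.

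In C57BL/6J, Kcnip2 had signals of 6.18, 8.76 and 8.99 (lowest, median, highest) in CR hearts, against 5.42, 7.69 and 8.17 in control hearts. Of the 8 CR hearts 6 were above every control heart, and the lowest, replicate 4, was below all control hearts but 1. The effect did not pass (adjusted p = 0.301), but it did when the spread was estimated from all 14 groups together. Without C57BL/6J CR replicate 4 it was 1.29 ± 0.30 and passed (adjusted p = 0.0228), as Kcnq1, Kcna5, Kcnj11 and Kcne1 then also did. With replicate 4 kept, 0.251% of all genes passed in this strain, and no channel gene. Without it 913 of 19938 genes passed, so many more genes than these 5 did.

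Atrial content differed between the C57BL/6J groups. Myl4 averaged 9.40 ± 2.78 in CR hearts and 12.17 ± 1.65 in control hearts (SD, n = 8 each), and 3 of 8 CR hearts against 7 of 8 control hearts lay in the upper Myl4 cluster. The mean of the 7 atrial markers ran from 5.83 to 10.64 in CR hearts and from 6.56 to 11.23 in control hearts. That of the 5 ventricular markers ran from 9.14 to 10.29 in CR hearts and from 6.87 to 9.92 in control hearts. The 5 adipocyte markers differed too, at 5.90 ± 1.69 in CR hearts and 7.20 ± 1.38 in control hearts (SD, n = 8 each). Their ranges were 4.64 to 8.95, with replicate 4 the highest, and 4.98 to 9.03. The part of ventricular and adipocyte content in the differences of this strain was not tested. With Myl4 as a covariate the Kcnip2 effect in this strain was 0.28 ± 0.37 (adjusted p = 0.976).

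The 250 bases before the annotated start are shown for Kcnip2, Kcna5 and Kcnj3, because these 3 genes followed atrial content most steeply, as given further on, and in opposite directions. They come from RefSeq (GRCm38.p6), where 6 of the 9 members had an entry, and run 5′ to 3′ on the strand of the gene. Capitals mark matches on either strand to the CACCC box bound by Krüppel-like factors, or to the GC box GGGCGG, and no matches overlapped each other. Kcnip2 is at chr19:45816064-45816313 (minus strand), Kcna5 at chr6:126535556-126535805 (minus strand) and Kcnj3 at chr2:55435720-55435969 (plus strand).
Kcnip2: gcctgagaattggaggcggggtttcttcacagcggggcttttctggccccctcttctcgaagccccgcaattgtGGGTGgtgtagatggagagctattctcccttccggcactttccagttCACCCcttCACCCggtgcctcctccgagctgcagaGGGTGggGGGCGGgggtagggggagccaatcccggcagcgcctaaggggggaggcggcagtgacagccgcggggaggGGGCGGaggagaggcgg
Kcna5: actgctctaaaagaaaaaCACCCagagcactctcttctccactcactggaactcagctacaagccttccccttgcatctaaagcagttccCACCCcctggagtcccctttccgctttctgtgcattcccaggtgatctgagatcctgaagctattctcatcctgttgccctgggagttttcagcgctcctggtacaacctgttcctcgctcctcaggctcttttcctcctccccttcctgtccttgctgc
Kcnj3: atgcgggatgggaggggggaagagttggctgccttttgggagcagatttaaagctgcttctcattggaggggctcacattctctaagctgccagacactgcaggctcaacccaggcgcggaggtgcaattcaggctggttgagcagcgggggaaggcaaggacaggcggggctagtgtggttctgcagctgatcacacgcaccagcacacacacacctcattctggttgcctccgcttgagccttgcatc
Kcnip2 held 4 CACCC and 2 GGGCGG matches and had 66.8% G and C. Kcna5 held 2 CACCC matches, and Kcnj3 held none of either. Among 27025 mouse promoters of the same length, 51.3% held CACCC and 32.9% held GGGCGG. The E-box CACGTG (6.0% of promoters), the steroid receptor half-site AGAACA (16.2%) and the TATA box TATAAA (13.0%) were also searched on both strands, and none of them was in these 3 windows.

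Kcna5 encodes Kv1.5, which carries the ultrarapid delayed rectifier IKur in mouse atria and ventricles and in human atria. Across strains its effect was -0.01 ± 0.07 (SE) and did not pass (adjusted p = 0.962), with strain means higher in CR hearts in 4 of 7 strains. In B6C3F1/J it was lower in CR hearts, with signals of 4.75, 5.27 and 5.73 (lowest, median, highest), against 5.61, 6.10 and 6.36 in control hearts. Of the 8 CR hearts 6 lay below every control heart, so the groups overlapped only at their edges.

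The Kcna5 effect in B6C3F1/J was -0.75 ± 0.15 (SE), 1.68-fold lower in CR hearts, with an adjusted p of 0.0193, and 0.908% of all genes passed in this strain, 42 higher and 139 lower. In C57BL/6J, one of the parents of the cross, the difference ran the other way, with signals of 4.87, 5.84 and 6.06 in CR hearts against 4.68, 5.12 and 5.91 in control hearts. That effect, 0.55 ± 0.20, did not pass (adjusted p = 0.243). The strain by diet interaction of Kcna5 had an F of 4.15 and did not pass (adjusted p = 0.0772), although it did without the 6 arrays that stood apart.

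Atrial content moved in the opposite direction to Kcna5 in B6C3F1/J. Myl4 averaged 11.17 ± 2.49 in CR hearts and 9.22 ± 2.52 in control hearts (SD, n = 8 each), with 5 of 8 CR hearts and 2 of 8 control hearts in the upper cluster. The mean of the 7 atrial markers ran from 5.93 to 10.52 in CR hearts and from 5.79 to 10.79 in control hearts, and that of the 4 endothelial markers from 7.29 to 8.34 in CR hearts and from 8.06 to 8.84 in control hearts. The part of endothelial content in the result was not tested. With Myl4 as a covariate the Kcna5 effect was -0.62 ± 0.15 and no longer passed (adjusted p = 0.0754).

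Kcnj2 encodes Kir2.1, the inward rectifier that carries most of IK1 and sets the resting potential of ventricular cells. Its across-strain effect was 0.09 ± 0.05 (SE), with a 95% interval of -0.02 to 0.19, and it did not pass (adjusted p = 0.335), though the mean was higher in CR hearts in 6 of 7 strains. Its strain effects ran from -0.03 in DBA/2J to 0.26 in C57BL/6J, and none passed.

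Kcnj11 encodes Kir6.2, the pore of the ATP-sensitive channel of ventricular cells. Its across-strain effect was 0.02 ± 0.05, with a 95% interval of -0.09 to 0.12 (adjusted p = 0.882). Its strain effects ran from -0.35 in B6C3F1/J to 0.38 in C57BL/6J and none passed, although that in C57BL/6J did without CR replicate 4 (0.51 ± 0.13, adjusted p = 0.0282). The same pair of strains stood at the ends for Kcna5, Kcnh2, Kcnd2, Kcnq1 and Kcnip2. Myl4 had the reverse ends, -2.77 in C57BL/6J and 1.96 in B6C3F1/J.

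Kcnj3 encodes Kir3.1, a subunit of the acetylcholine-gated channel of atrial and nodal cells. Its across-strain effect was -0.01 ± 0.12 (SE), with an adjusted p of 0.974 and a 95% interval of -0.25 to 0.23 that was the widest of the 9 genes. Strain effects ran from -0.50 in C57BL/6J to 0.36 in B6C3F1/J, the reverse of the ends for Kcna5, and none passed. In 129S1/SvImJ, where no heart lay in the upper Myl4 cluster, Kcnj3 was nearly level at 8.54 ± 0.12 in CR hearts and 8.63 ± 0.09 in control hearts (SD, n = 8 each).

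Outside 129S1/SvImJ and the control hearts of CBA/J, Kcnj3 spread widely within groups, with SDs of 0.38 to 0.98. In B6C3F1/J it had signals of 8.68, 9.29 and 9.98 (lowest, median, highest) in CR hearts, against 8.49, 8.76 and 10.08 in control hearts, while Myl4 had 7.65, 12.80 and 13.19 in CR hearts against 7.15, 8.00 and 13.11 in control hearts. In C57BL/6J, Kcnj3 had 8.89, 9.02 and 10.07 in CR hearts against 8.74, 9.77 and 10.71 in control hearts, and Myl4 had 6.93, 7.79 and 13.09 in CR hearts against 8.34, 12.82 and 13.11 in control hearts. In both strains the group with the higher Myl4 median also had the higher Kcnj3 median, and the ranges overlapped.

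A single model asked how each channel gene followed Myl4 within the 14 groups. The slope, in log2 signal per log2 unit of Myl4, was 0.24 ± 0.02 (SE) for Kcnj3, with an adjusted p of 1.03e-23. It was negative and passed for Kcnip2 (-0.13 ± 0.02), Kcna5 (-0.11 ± 0.01), Kcnj2 (-0.07 ± 0.01), Kcnj11 (-0.06 ± 0.01) and Kcnd2 (-0.04 ± 0.02, adjusted p = 0.0381). Kcne1, Kcnq1 and Kcnh2 did not pass, with slopes of -0.02, -0.03 and 0.00. Thus 6 of 9 channel genes passed, where 37.9% of all genes did, 3241 with a positive and 4310 with a negative slope.

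Because Myl4 fell into clusters, the slope was also fitted within each, a setting added after the data were seen. Kcnj3 rose with Myl4 among the 36 arrays of the upper cluster, by 1.06 ± 0.16 per log2 unit (adjusted p = 0.000145), and not detectably among the 75 arrays of the lower, by 0.03 ± 0.03 (adjusted p = 0.604). Kcnip2 fell with Myl4 in the lower cluster (-0.15 ± 0.04, adjusted p = 0.0135), and its slope of -0.65 ± 0.24 in the upper cluster did not pass (adjusted p = 0.0787). The slopes of Kcna5, Kcnj2, Kcnj11 and Kcnd2 passed in neither cluster taken alone. Kcna5 was negatively correlated with Myl4 in 14 of 14 groups, Kcnip2 and Kcnj11 in 13 each, and Kcnj3 positively in 11, over 7 or 8 arrays a group.

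**Figure D3:**
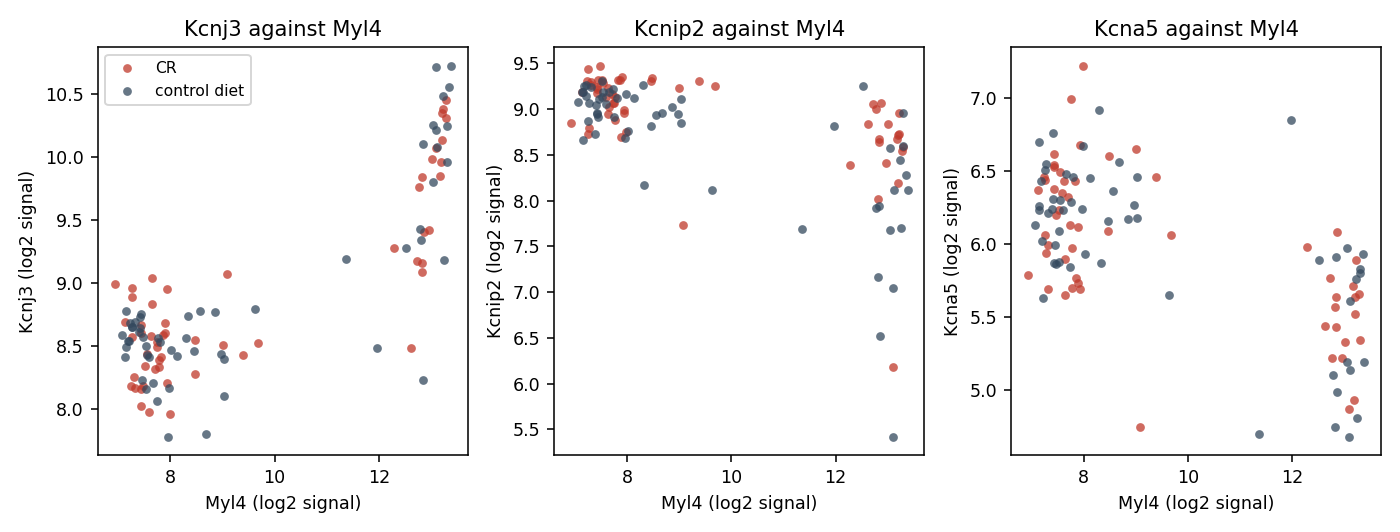
Log2 signal of Kcnj3, Kcnip2 and Kcna5 against that of the atrial marker Myl4 in each heart used, CR in red and control diet in blue. Myl4 signals form 2 clusters with a gap between 9.68 and 11.36, and hearts of both diets are in each cluster.

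**Figure D4:**
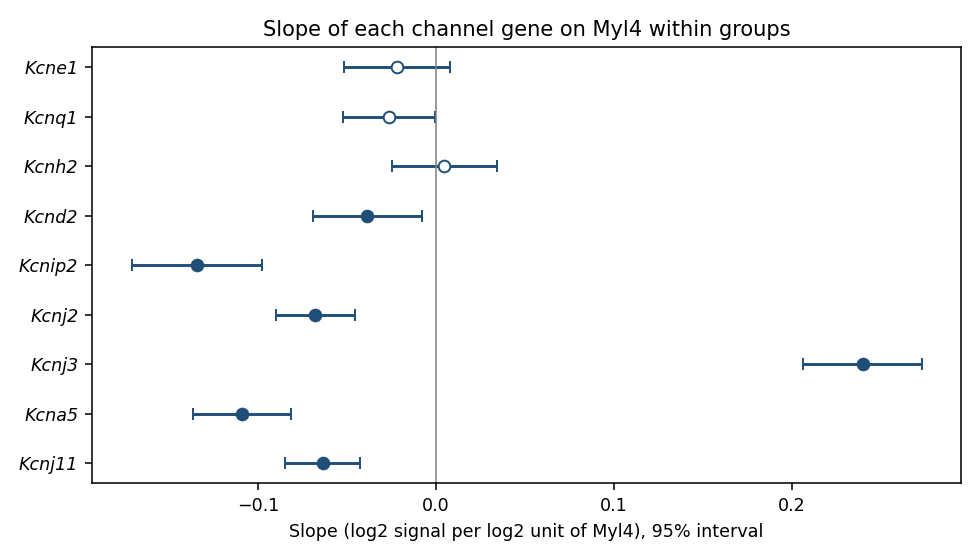
Slope of each channel gene on Myl4 within the 14 groups, in log2 signal per log2 unit of Myl4, with 95% intervals; filled points passed. Kcnj3 alone lies clearly above 0 (0.24), and Kcnip2 (-0.13) and Kcna5 (-0.11) are the lowest.

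The signals of all 9 channel genes differed between the 7 strains on the control diet, in a comparison where 60.7% of all genes passed. Each gene was read by 1 probe set, and whether strain differences in the sequence under its probes had a part was not tested. Kcne1 differed most clearly (F = 23.2, adjusted p = 2.4e-15), and its strain means spanned 1.76 log2 units, or 3.38-fold. CBA/J was highest at 6.74 ± 0.17 (SD, n = 8), followed by DBA/2J (5.89 ± 0.48), C3H/HeJ (5.70 ± 0.21), B6C3F1/J (5.69 ± 0.26), 129S1/SvImJ (5.45 ± 0.23), BALB/cJ (5.20 ± 0.26) and C57BL/6J (4.99 ± 0.39). Neighbours in this order overlapped in range throughout, and only the step below CBA/J, 0.86, exceeded the larger SD of its neighbours. The overlap of CBA/J with DBA/2J rested on DBA/2J control replicate 8 alone, at 6.96, with the others at 5.27 to 5.96. The means of BALB/cJ and C57BL/6J were dim, under the lowest array median of 5.31.

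On CR the order for Kcne1 began with 129S1/SvImJ at 6.88 ± 0.59, followed by CBA/J at 6.54 ± 0.33 (SD, n = 8 each), and BALB/cJ was lowest at 5.44 ± 0.37. The 129S1/SvImJ strain was thus the highest of 7 among CR hearts, against the fifth among control hearts.

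C57BL/6J was the lowest of the control strains for 6 genes, Kcne1, Kcnq1, Kcnh2, Kcnd2, Kcnip2 and Kcna5, and the highest for Kcnj3. Kcnip2 was at 7.38 ± 0.88 in C57BL/6J, against 8.63 ± 0.35 in the next strain, B6C3F1/J, and 9.07 ± 0.13 in 129S1/SvImJ (SD, n = 8 each), while Kcna5 was at 5.17 ± 0.49 in C57BL/6J and 6.48 ± 0.20 in 129S1/SvImJ. Kcnj3 was at 9.75 ± 0.66 in C57BL/6J and between 8.44 and 9.09 in the other strains. C57BL/6J control hearts also had the highest Myl4 (12.17 ± 1.65), so strain and atrial content moved together. With Myl4 as a covariate the strain difference still passed for all 9 genes. That fit uses a single slope per gene, although the Kcnj3 slope differed between the Myl4 clusters, so it does not separate strain from atrial content.

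DBA/2J was the lowest control strain for Kcnj2 (7.34 ± 0.35), Kcnj11 (7.09 ± 0.26) and Kcnj3 (8.44 ± 0.85). Kcnj2 had the smallest span of strain means, 0.52 log2 units from 129S1/SvImJ (7.86 ± 0.17) to DBA/2J, and its call was lost with all 112 arrays (adjusted p = 0.0975), the only member for which that was so. Kcnj11 was highest in CBA/J (7.69 ± 0.60) and B6C3F1/J (7.66 ± 0.23), and the step from B6C3F1/J to C57BL/6J, 0.33, was the only one over the larger SD.

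**Figure D5:**
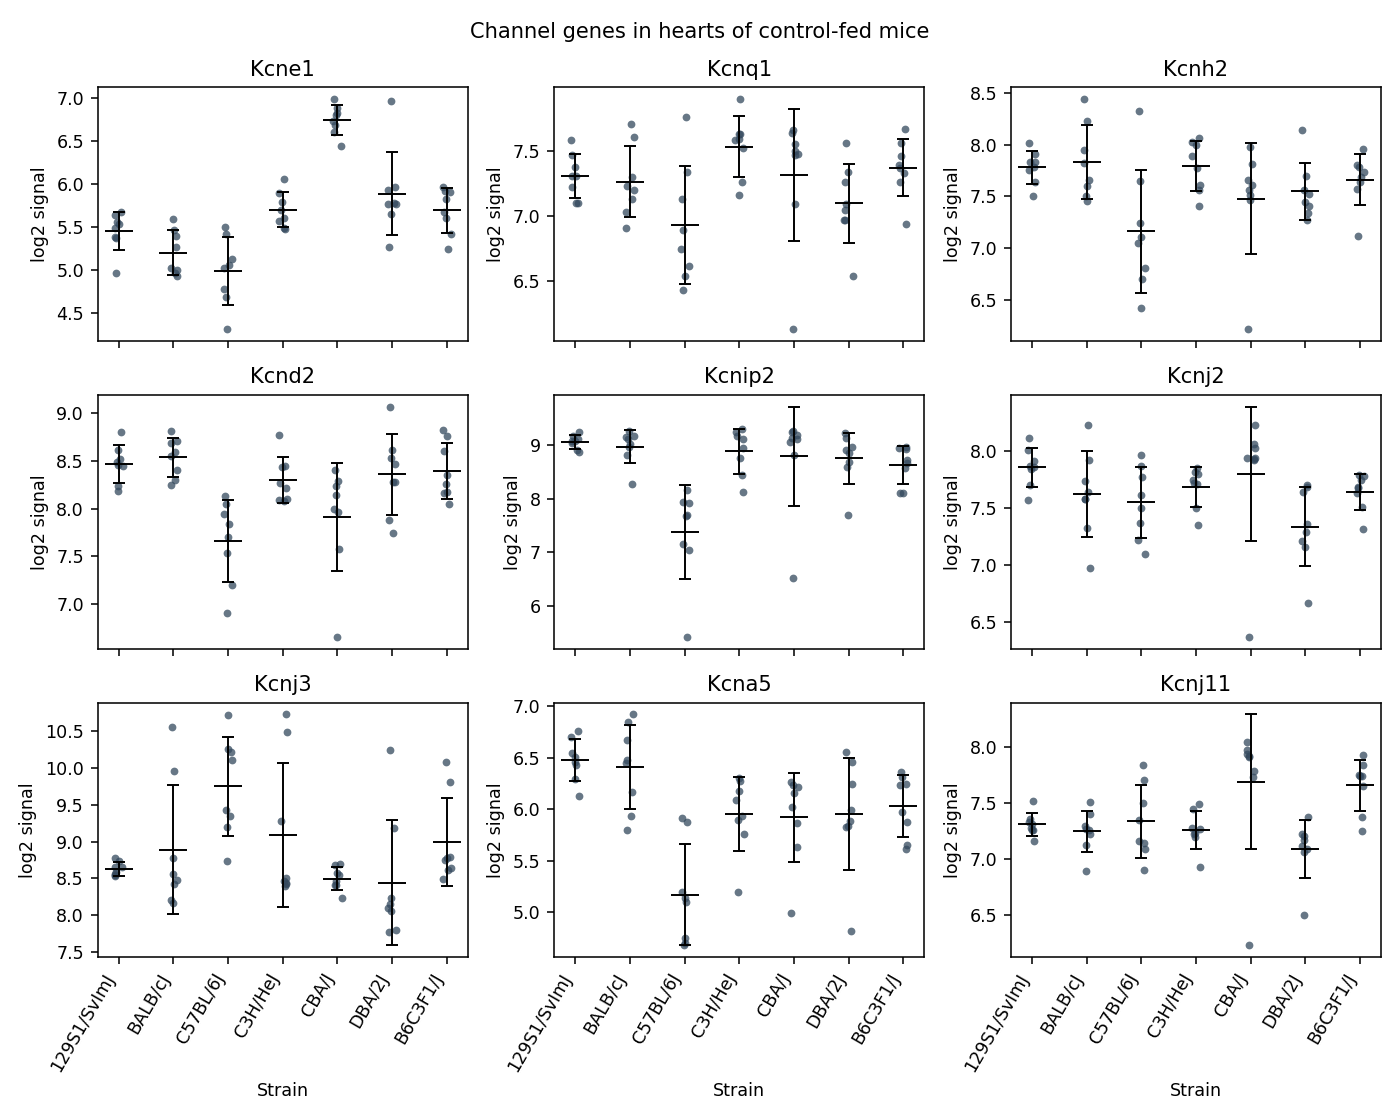
Log2 signal of the 9 channel genes in the hearts of control-fed mice, by strain; points are hearts, marks are means and bars ± 1 SD (n = 8). Kcne1 is highest in CBA/J, and C57BL/6J is the lowest strain for 6 of the genes.

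The cross B6C3F1/J was compared with the mean of its parents, C57BL/6J and C3H/HeJ, on the control diet. Kcnj11 was higher in the cross by 0.36 ± 0.12 (SE), 1.29-fold, and passed (adjusted p = 0.0323), where 9.96% of all genes passed, 1185 higher and 800 lower. It had signals of 7.25, 7.74 and 7.93 (lowest, median, highest) in B6C3F1/J, against 6.90, 7.25 and 7.84 in C57BL/6J and 6.93, 7.25 and 7.49 in C3H/HeJ, so the ranges overlapped. With Myl4 as a covariate the difference was 0.24 ± 0.10 and did not pass (adjusted p = 0.155). With all 112 arrays it was the same 0.36, with a wider error of 0.13, and did not pass (adjusted p = 0.0978). Kcna5 (0.47 ± 0.17, adjusted p = 0.0569) and Kcnd2 (0.41 ± 0.15, adjusted p = 0.0641) did not pass, nor did the other 6 members. Kcna5 and Kcnd2 did pass after a second quantile normalization and with arrays centred on the median. Without the 6 arrays that stood apart, Kcna5, Kcnd2 and Kcnip2 passed beside Kcnj11.

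Few genes passed within single strains, which sets the scale for the members. Outside 129S1/SvImJ, C57BL/6J and B6C3F1/J, named above, the share of all genes that passed was 0.0552% in C3H/HeJ, 0.015% in CBA/J and 0.01% in DBA/2J, with no channel gene among them. In BALB/cJ 0 of 19938 genes passed (0%) in limma and also by the unmoderated test of the study's methods after adjustment, and 1300 genes had an unadjusted p under 0.05. The largest BALB/cJ difference among the members was that of Kcne1, given above.

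A list of other cardiac potassium channel genes was read beside the members, 30 of which were measured. Across strains 1 of the 30 passed, Kcnj12, which encodes the inward rectifier Kir2.2, at 0.11 ± 0.04 (SE) with an adjusted p of 0.0436. The median effect of the 30 was -0.0219, and 8 of them were above 0. Among them were further subunits of the currents above: Kcnd3, the Kv4.3 pore, at -0.06 ± 0.05, Kcne2, a subunit related to minK, at -0.03 ± 0.04, and Abcc9, the sulphonylurea receptor SUR2, at -0.00 ± 0.09, none of which passed. No gene of the 30 passed the interaction, the comparison of the cross with its parents, or the CR effect in any single strain, and 16 of 30 differed between control strains.

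On Myl4, 19 of the 30 passed, 9 with a positive and 10 with a negative slope. Kcnj5, which encodes Kir3.4, the partner of Kir3.1 in the acetylcholine-gated channel, had a slope of 0.11 ± 0.01 (adjusted p = 1.29e-09), the same direction as Kcnj3. Abcc9 and Kcnj8, which encode subunits of ATP-sensitive channels, had slopes of -0.15 ± 0.02 and -0.08 ± 0.01, the same direction as Kcnj11. Kcnma1 and Kcnmb1, the large-conductance calcium-activated channel and its smooth muscle subunit, had slopes of 0.15 ± 0.01 and 0.11 ± 0.02, while the mean of the 4 smooth muscle markers also varied between arrays, from 6.29 to 9.71.

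For each member the 3 genes with the most similar pattern were found, as the correlation of log2 signals with each array taken as its difference from its group mean, over the 55 CR and 56 control arrays. The arrays share tissue composition, which enters all these values. Kcne1 had no close neighbour, its best being 4631405J19Rik (0.57), Pde6d (0.53) and Perp (0.52). Kcnq1 was closest to Myocd (0.90), Kcnh2 (0.88) and Ank3 (0.88), and Kcnh2 to Tmod1 (0.89), Kcnq1 (0.88) and Myocd (0.87), Myocd being myocardin, a coactivator of muscle genes.

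Kcnip2 was closest to Nnt (0.93), Idh2 (0.92) and Abcc9 (0.92), the first 2 of which encode mitochondrial enzymes of NADPH supply. Kcnd2 was closest to Itga7 (0.79), Fyco1 (0.79) and Ank2 (0.79), and Kcnj2 to Tmem65 (0.82), Grb14 (0.82) and Lrrc14b (0.81). Kcnj3 was closest to Erbb4 (0.95), Sbk3 (0.95) and the probe set annotated as Mir690 (0.95). Kcna5 was closest to Sema7a (0.85), Arhgap27 (0.83) and Mcf2l (0.83), and Kcnj11 to Pfkm (0.91), which encodes muscle phosphofructokinase, Pygb (0.90) and Asb2 (0.90).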

How the data were processed

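Gene expression was measured in mouse hearts on Affymetrix Mouse Gene 1.0 ST arrays, 1 mouse per array, and the spread behind each p-value is that between mice. Values were deposited as log2 signals of probe sets. The authors obtained them in Affymetrix Expression Console by gene-level RMA-Sketch (background correction, quantile normalization, summary by median polish). The software version is not given in the sources used here. Signals ran from 0.463 to 14.2, and array medians from 5.31 to 5.70. Quantile normalization would remove part of a shift shared by most genes, and remaining background compresses differences of dim genes, among which Kcne1 and Kcna5 are the dimmest members (mean log2 signals of 5.85 and 5.98). Precision is limited by the number of arrays, since arrays carry no depth.

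Of 35556 probe sets, 21789 had 1 gene symbol, 1621 had several and 12146 were unnamed in the platform annotation. Identifiers of 21698 matched the RefSeq gene table (GRCm38.p6). A gene was represented by its brightest probe set with that single symbol (999 genes had several), which gave 19938 genes, and no filter was applied. Promoters came from RefSeq, with the 250 bases before the start used.

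Linear models (lmFit and eBayes of limma 3.58.1, run in R 4.3.3) were fitted to all genes, with a mean for each of the 14 groups on all arrays without DBA/2J CR replicate 7, which the study also left out. Contrasts were the mean CR effect over 7 strains, the strain by diet interaction (F test), differences between control strains (F test), the cross against the mean of its parents, and, with Myl4 as a covariate, the slope on Myl4. CR effects within a strain were fitted on the arrays of that strain alone. Tests were 2-sided, p-values were adjusted by Benjamini-Hochberg over all genes tested, and the threshold was 0.05. The fit was tested on simulated data. Descriptions and plots used Python 3.11.15, pandas 2.3.3 and matplotlib 3.10.9, and the R package data.table, version 1.17.8, handled the files.

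The members, the lists and the alternatives were chosen with earlier results of these data known. Named genes were the 9 members, Myl4, other potassium channel genes past the across-strain threshold, and the 3 genes most correlated with each member. Further genes of the other list were named for their role after their values were seen. Some genes of the lists are not reported here. Replicate numbers were shared between diets but were not used to pair the samples. Alternatives were all 112 arrays, another quantile normalization, centring on the array median, leaving out dim genes, the mean of probe sets, array weights, a trended variance, the replicate block, marker covariates, an analysis of variance without moderation, the methods' t-test, 1 fit for all groups, and leaving out strains or arrays.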

Additional observations from a re-analysis of the deposited data

Results flagged for a closer look

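Kcne1 was singled out because its CR effect differed between strains, with an interaction F of 9.63 and an adjusted p of 4.24e-05 in limma.

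In 22 of 126 tests of a gene within a group, Dixon's test set 1 array apart from its group, which happens by chance in about 1 in 20 groups. Of these, 17 lay on the arrays described as apart. On C57BL/6J CR replicate 4, 7 channel genes were low, with log2 signals of 6.53 for Kcnq1, 6.51 for Kcnh2, 6.95 for Kcnd2, 6.18 for Kcnip2, 6.81 for Kcnj2, 4.87 for Kcna5 and 6.81 for Kcnj11, while Kcnj3 (10.07) was the highest of its group. Kcne1 (4.85) was also the lowest of its group, but the test did not set it apart. The 5 adipocyte markers of this array averaged 8.95, against 4.64 to 7.73 on the other arrays of the group. Its 5 markers of all cardiomyocytes averaged 11.99, against 12.59 to 12.95. On CBA/J control replicate 1, 6 were low: Kcnq1 (6.13), Kcnh2 (6.22), Kcnd2 (6.65), Kcnip2 (6.52), Kcnj2 (6.37) and Kcnj11 (6.23). Its adipocyte markers averaged 7.65, against 4.58 to 4.87 on the others, and its smooth muscle markers 9.43, against 6.80 to 7.17. Its markers of all cardiomyocytes averaged 11.13, against 12.32 to 12.81, and its ventricular markers 9.46, against 10.04 to 10.21. Its atrial markers averaged 9.2, against 6.02 to 6.45. Kcna5 (4.99) and Kcnj3 (8.23) were also the lowest of the group, but the test did not set them apart. Kcne1 (6.99), however, was the highest of its group.

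DBA/2J control replicate 5 was low for Kcnip2 (7.70), Kcna5 (4.81) and Kcnj11 (6.50), and its 3 lymphocyte markers averaged 7.49, against 4.56 to 4.89 on the others. Its ventricular markers averaged 9.16, against 9.69 to 10.21, and its adipocyte markers 7.13, against 4.65 to 6.64. BALB/cJ control replicate 7 was low for Kcnip2 (8.28), with lymphocyte markers at 7.01, against 4.16 to 4.89. Its ventricular markers averaged 8.88, against 9.85 to 10.23, and its adipocyte markers 7.75, against 4.58 to 7.14. What part tissue composition had in these low values was not tested.

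The other arrays that stood apart did so for 1 gene each. Kcne1 was low in 129S1/SvImJ control replicate 8 (4.97, others 5.37 to 5.68) and high in DBA/2J control replicate 8 (6.96, others 5.27 to 5.96). Kcnq1 was low in 129S1/SvImJ CR replicate 2 (7.39), Kcnh2 in B6C3F1/J control replicate 7 (7.12) and Kcnip2 in C57BL/6J control replicate 4 (5.42, others 7.05 to 8.17).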

How the results depend on the processing

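The number of arrays, signal over background for dim genes such as Kcne1, and atrial content limit these results. Of the across-strain member and Myl4 results under each alternative, 210 kept direction and side of the threshold, 7 called effects were no longer past it (1 for Kcnq1, 6 for Kcnip2, as given in the report) and 32 uncalled effects changed sign. The cause of a change was not tested unless stated.

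Uncalled across-strain effects near 0 changed sign as follows. With all 112 arrays Kcnj11 was -0.0063 and Myl4 -0.029; with array weights Kcnj11 was -0.0099 and Kcnj3 0.022; with arrays centred on the median Kcnd2 was 0.0040. Myl4 was -0.0050 after a second quantile normalization and -0.053 with marker means as covariates. Without the 6 further arrays Kcnj11 was -0.021 and Kcnj3 0.055. Without 129S1/SvImJ, Myl4 was -0.0010, Kcnj3 0.0014 and Kcna5 0.011. Without B6C3F1/J, Myl4 was -0.31, Kcnd2 0.071 and Kcna5 0.11. Without C57BL/6J, Kcnj11 was -0.044 and Kcnj3 0.070. Without CBA/J, Myl4 was -0.12 and Kcnd2 0.010. Kcnj3 was 0.0029 without BALB/cJ and 0.011 without DBA/2J, and Myl4 was -0.12 without C3H/HeJ. Leaving out, one at a time, each of the 6 arrays that stood apart gave ranges of -0.029 to 0.017 for Kcnd2, -0.027 to 0.023 for Kcnj3, -0.032 to 0.0088 for Kcna5, -0.013 to 0.036 for Kcnj11 and -0.057 to 0.11 for Myl4.

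In the cross against its parents, Kcnj2 was -0.10 and Kcnj3 0.026 with Myl4 as a covariate. Slopes on Myl4 that had not passed changed sign too: Kcne1 to 0.015 and Kcnh2 to -0.0039 in control arrays only, Kcnh2 to -0.0026 with centred arrays, Kcne1 to 0.037 and Kcnh2 to -0.11 in the lower Myl4 cluster, and Kcnq1 to 0.15 in the upper.

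Counts over all genes moved more. The across-strain count of 2399 was 1066 with all 112 arrays, 4481 with array weights and 1239 without 129S1/SvImJ. The interaction count of 142 was 30 with all 112 arrays, 1830 without the 6 further arrays (Kcnq1, Kcnip2, Kcna5 and Kcnj11 then passed as well) and 38 without 129S1/SvImJ. The count for the cross, 1985, was 735 with all 112 arrays and 1208 without dim genes. The slope count of 7551 was 2980 in the lower and 2206 in the upper Myl4 cluster.

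With all 14 groups in 1 fit, within-strain counts were 459 in 129S1/SvImJ (1361 when fitted alone), 979 in C57BL/6J (50), 6 in C3H/HeJ (11), 36 in CBA/J (3), 14 in DBA/2J (2) and 2829 in B6C3F1/J (181). With Myl4 as a covariate they were 12 in C57BL/6J, 21 in C3H/HeJ, 15 in CBA/J, 14 in DBA/2J and 47 in B6C3F1/J. The methods' t-test, run on log2 signals and after adjustment, gave 4 in C3H/HeJ and 0 in DBA/2J. In DBA/2J 1018 genes had an unadjusted p under 0.05 in limma, and 0 genes passed with DBA/2J CR replicate 7. Leaving out the array that stood apart, a setting chosen after seeing the data, gave 913 in C57BL/6J, 30 in C3H/HeJ, 80 in CBA/J and 13 in DBA/2J.

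Mice of the 2 diets share replicate numbers. Deviations from the group means correlated between same-numbered mice by over 0.1 in 28 of 55 pairs (range -0.441 to 0.674), and the labels name no shared origin for a number, so the samples were taken to share only a number. Of 55 CR arrays 15 correlated best with the control array of their own number, where equal odds would give 6.88, a hint of pairing from the data and not from the design. With the replicate block the counts were 1 in C3H/HeJ, 0 in CBA/J, 0 in DBA/2J and 465 in B6C3F1/J, and Myl4 was -0.019 across strains. Kcne1 in B6C3F1/J then passed (adjusted p = 0.0496), and the member calls across strains were the same 3.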
